A study of Mus musculus with 16 samples.

Results

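Glucocorticoid response genes are genes whose transcription follows the adrenal steroid hormone (corticosterone in mice). The 6 genes described here are Tsc22d3, Fkbp5, Zbtb16, Sgk1, Klf9 and Nr3c1, 6 of the 13733 genes listed for bulk RNA-seq of knee joint cells. Tsc22d3 had been noticed in these same data because it stood highest among genes higher in uninjured Trem2-/- than in uninjured WT joints. In that comparison 22 genes, counted over both directions, met the criteria used on unadjusted p, fold, level and separation. The other members are well-known genes of the same hormone response and were taken as added by name, which the sources used here do not state and on which their p-values rest. All 6 passed the filter on low values, with at least 1 CPM (reads per gene scaled to a common library size, here with the TMM factors of edgeR) in 16 of 16 libraries.

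The experiment compared WT and Trem2-/- mice before and after joint injury, with 4 mice per group. WT mice were C57BL/6J, and Trem2-/- mice carry a germline loss-of-function allele, Trem2em2Adiuj, on the same background, so Trem2 is disrupted in all cells and not only in the macrophages that use this lipid-sensing receptor. All mice were male. D0 joints were uninjured, and D7 joints were taken 7 days after 1 tibial compression that ruptured the anterior cruciate ligament at 10 weeks of age. Buprenorphine and saline were given right after injury, and whether uninjured mice received either, and the hour at which mice were killed, is not given in the sources used here. Cells were released from the joint with collagenase and DNase and red cells were lysed, so the libraries are mixtures in which fewer cells of a type and less RNA per cell cannot be told apart. The single-cell protocol to which the study refers goes on to separate immune from other cells with CD45 beads. Whether the bulk cells were separated this way is not given in the sources used here. One field of the labels instead describes homogenized joints of control and diabetic mice at 16 weeks; groups were taken from genotype and injury day, which the fields share.

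Hormone that has entered a cell binds the glucocorticoid receptor, encoded by Nr3c1, which is held ready by heat shock protein chaperones and then acts in the nucleus. The receptor binds a palindromic response element and raises a set of target genes, and it also restrains inflammatory genes such as cytokines. Among the targets, Tsc22d3 (also called GILZ) carries much of the anti-inflammatory program in leukocytes, Fkbp5 is a chaperone-bound brake on the receptor itself, Sgk1 is a kinase that controls ion transport and cell survival, and Klf9 and Zbtb16 are transcription factors. Glucocorticoids are used in the knee to quiet inflammation, and leukocytes, fibroblasts and chondrocytes all carry the receptor.

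The response element is shown here in the promoters of 2 members, those of the 4 searched whose windows hold it in whole or in part. RefSeq promoter windows ran from 250 bases before to 50 after a start site in GRCm38.p6. They were used for 4 members, in 11 windows in all (6 for Sgk1, 3 for Tsc22d3, 1 for Fkbp5 and 1 for Klf9). No window was found for Zbtb16, and Nr3c1 was left out of the search. Each window was searched for the full palindrome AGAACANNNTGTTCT and for its arm AGAACA, which reads TGTTCT on the other strand and which the full palindrome contains. The stretch of Sgk1 below lies at chr10:21993640-21993889 on the plus strand, the 250 bases before the start site at 21993890, with matches to either motif in capitals. The stretch of Tsc22d3 lies at chrX:140600660-140600772 on the minus strand, upstream of the start site at 140600522 and outside its annotated exons.
Sgk1: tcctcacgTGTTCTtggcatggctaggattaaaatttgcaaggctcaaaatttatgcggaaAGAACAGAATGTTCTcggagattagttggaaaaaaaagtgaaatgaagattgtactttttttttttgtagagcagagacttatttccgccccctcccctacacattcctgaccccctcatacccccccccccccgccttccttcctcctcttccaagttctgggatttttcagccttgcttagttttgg
Tsc22d3: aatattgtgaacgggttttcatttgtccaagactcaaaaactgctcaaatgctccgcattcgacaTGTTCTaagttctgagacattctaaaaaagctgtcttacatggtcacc
The full palindrome of Sgk1, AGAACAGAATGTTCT, runs from base -189 to base -175 of the start site, and 3 of all 32851 windows (0.00913%) hold a full palindrome. The arm found in Tsc22d3 begins at base -185. Arms stood in 4 of the 11 member windows, 3 of Sgk1 and 1 of Tsc22d3, and in 19% of all windows. A match is a description of the letters, and binding was not measured in these libraries.

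Over all 16 libraries the members covered a wide range of levels. Per kilobase of annotated exon (GENCODE M21, GRCm38), Sgk1 had the highest level at 132 ± 33.5 CPM per kb (SD, n = 16). Tsc22d3 at 33.0 ± 11.1 and Klf9 at 31.9 ± 6.56 CPM per kb did not differ beyond their spread. Nr3c1 followed at 20.5 ± 1.84, Fkbp5 at 5.65 ± 0.820 and Zbtb16 at 1.85 ± 1.13 CPM per kb, each lower than its neighbour by more than its own SD. The members differed as much in how far they varied: the highest library held 1.36 times the CPM of the lowest for Nr3c1, 1.66 times for Fkbp5, 2.03 times for Klf9, 2.52 times for Sgk1, 2.98 times for Tsc22d3 and 7.59 times for Zbtb16. The least abundant value, Zbtb16 in a Trem2-/- D7 mouse, still rested on 48 reads.

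**Figure D1:**
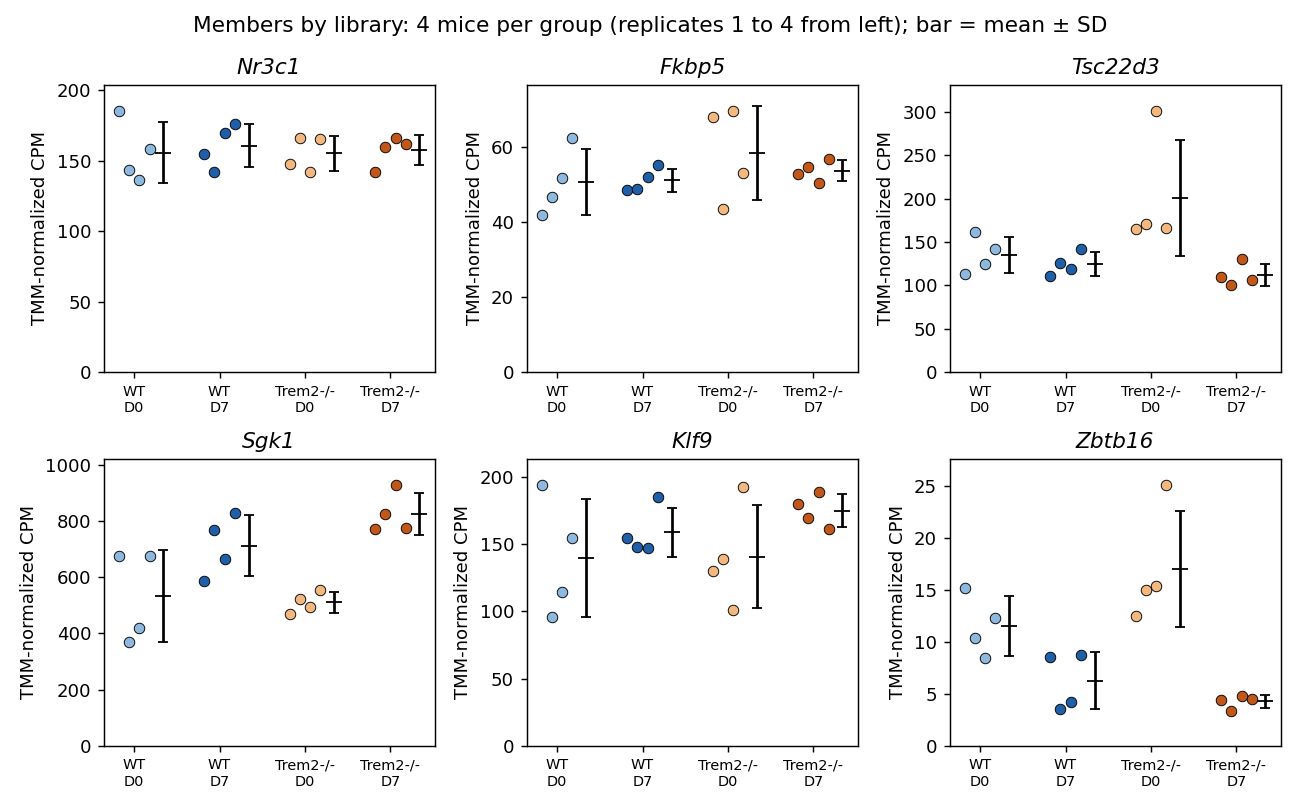
TMM-normalized CPM (vertical axis) of each member in the 16 libraries, 4 mice per group (horizontal axis) with replicates 1 to 4 from left to right; the bar beside each group is its mean ± SD. Nr3c1 lies between 136 and 185 CPM throughout, Tsc22d3 has 1 library at 301 CPM, and Sgk1 and Zbtb16 in Trem2-/- mice do not overlap between D0 and D7.

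The libraries held 11567073 to 32867818 reads (median 16399898), so 3 reads were worth between 0.101 and 0.250 CPM, a limit that covers counting error only. Trem2 itself was at 4.56 ± 1.40 CPM in WT D0 and 1.80 ± 0.713 in Trem2-/- D0, and at 16.8 ± 5.08 in WT D7 and 4.27 ± 0.644 in Trem2-/- D7 (SD, n = 4). The makeup of the libraries shifted with injury. Summed neutrophil markers (6 genes) went from 12516 to 28265 CPM in WT D0 libraries and 3898 to 12598 in WT D7, and from 12881 to 36321 in Trem2-/- D0 and 3847 to 6167 in Trem2-/- D7. Summed fibroblast markers (6 genes) went from 6102 to 49447 CPM in WT D0, 74136 to 114300 in WT D7, 5122 to 10991 in Trem2-/- D0 and 98005 to 138650 in Trem2-/- D7. Of the lists of markers, 6 of 6 leukocyte, 6 of 6 neutrophil and 4 of 4 erythroid genes were called lower at D7 in both genotypes. Of all genes tested, 18.2% were called lower in WT and 27.9% in Trem2-/- mice. In both genotypes 5 of 6 fibroblast and 5 of 5 chondrocyte genes were called higher, against 19.3% and 26.5% of all genes. No marker of these lists was at 0 in any library. Macrophage genes went up as a list: 5 of 6 were called higher in WT, and 4 higher and 1 lower in Trem2-/- mice.

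The receptor gene was the steadiest member. Nr3c1, at chr18:39410545-39519421, was at 185, 143, 136 and 158 CPM in the WT D0 mice, 155, 142, 169.7 and 176 in WT D7, 148, 166, 142 and 166 in Trem2-/- D0, and 142, 159.6, 166 and 162 in Trem2-/- D7. All 4 groups overlapped, and the highest and lowest libraries were both WT D0. After injury its log2 difference was 0.05 (95% interval -0.18 to 0.28) in WT and 0.02 (-0.21 to 0.25) in Trem2-/- mice, with limma adjusted p of 0.751 and 0.887. Between genotypes it was -0.03 (-0.26 to 0.20; adjusted p = 0.973) at D7 and 0.00 at D0.

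Fkbp5, at chr17:28399094-28517527, the brake on the receptor and often read as an early sign of hormone exposure, also differed little between groups. It was at 41.8, 46.7, 51.6 and 62.3 CPM in WT D0 mice, 48.5, 48.9, 52.1 and 55.1 in WT D7, 67.9, 43.4, 69.5 and 53.0 in Trem2-/- D0, and 52.7, 54.6, 50.4 and 56.9 in Trem2-/- D7. The groups overlapped in every comparison, and the D0 groups were the more spread ones in both genotypes. The log2 difference with injury was 0.03 ± 0.14 (SE) in WT and -0.10 ± 0.14 in Trem2-/- mice (limma adjusted p = 0.900 and 0.583), and at D7 Trem2-/- mice differed from WT by 0.07 ± 0.14 (adjusted p = 0.944). At D0 the difference between genotypes, given as a description, was 0.19 ± 0.14.

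Tsc22d3, at chrX:140539528-140600659, was the member by which the set was chosen, so its values are described without a test. It stood at 113, 161, 124 and 142 CPM in WT D0 mice and at 165, 171, 301 and 167 CPM in Trem2-/- D0 mice. Every Trem2-/- D0 library was above every WT D0 library and 1 of them, replicate 3, stood far above the rest. At D7 the WT mice had 111, 126, 119 and 142 CPM and the Trem2-/- mice 110.0, 101, 131 and 106 CPM, and here the genotypes overlapped.

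The log2 difference of Tsc22d3 between genotypes was 0.53 at D0 and -0.15 at D7. With injury it was -0.11 in WT and -0.80 in Trem2-/- mice, whose D7 libraries all lay below their D0 libraries. Of all genes tested, 0.44% lay apart and higher in Trem2-/- D0 than in WT D0 mice, and 26.3% lay apart and lower at D7 in Trem2-/- mice. The injury contrast in Trem2-/- mice shares its D0 mice with the contrast in which Tsc22d3 was noticed, and nothing is read from the pair of values.

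Replicate 3 of Trem2-/- D0 weighed on these values. Without it the group mean of Tsc22d3 was 168 ± 3.37 CPM (SD, n = 3) in place of 201 ± 66.8 (n = 4), the D0 difference between genotypes was 0.32 and the change with injury in Trem2-/- mice was -0.59 on the log2 scale. Fkbp5 also had its highest value in this library, while Zbtb16, Sgk1, Klf9 and Nr3c1 did not. The same library held the highest sum of 9 genes that respond to stress of tissue handling, 23754 CPM against 14831 in the next, and 5 of the 9 were highest there, Fos, Jun, Junb, Ier2 and Hspa1b. The heat shock gene Hspa1b, a near copy of Hspa1a whose reads could be split between the copies, was at 9390 CPM in it and between 907 and 5168 in the other 15 libraries. Summed neutrophil markers were highest in it too, at 36321 CPM. Their part in the level of Tsc22d3 was not tested.

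**Figure D2:**
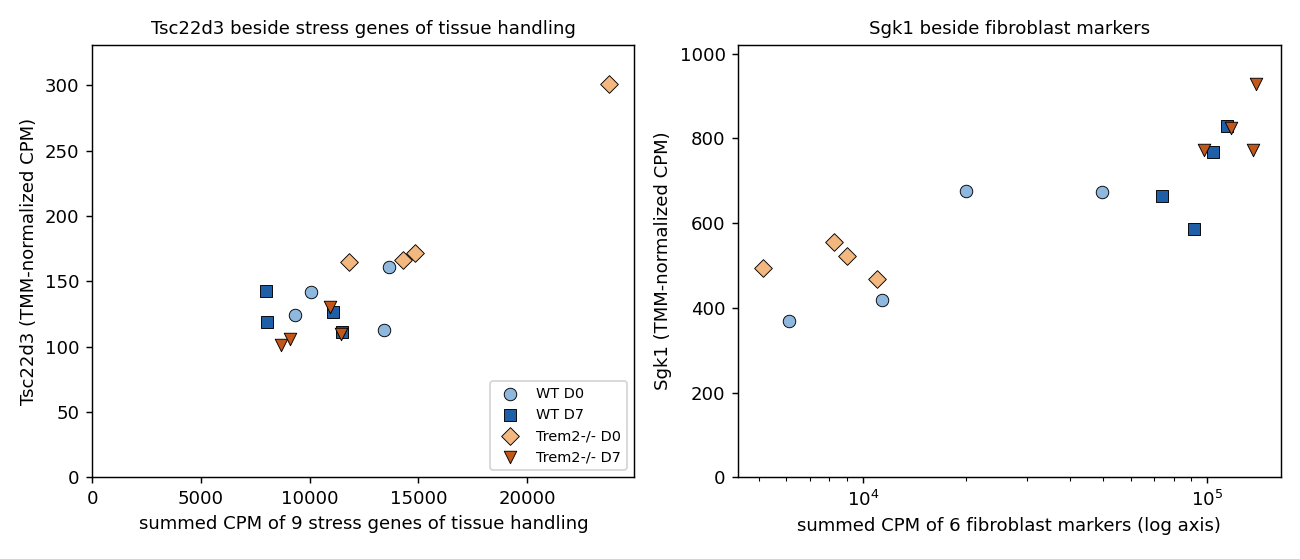
Left, CPM of Tsc22d3 against the summed CPM of 9 stress genes of tissue handling; right, CPM of Sgk1 against the summed CPM of 6 fibroblast markers on a log axis; each point is 1 of 16 libraries, with colour and shape for the group. The Trem2-/- D0 library with 301 CPM of Tsc22d3 also has the highest stress sum, 23754 CPM, and the 2 WT D0 libraries with the higher Sgk1 have the higher fibroblast sums of their group.

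The genes that varied most like Tsc22d3 over the 16 libraries, among 10551 genes averaging 5 CPM or more, were Snx27 (Pearson r = 0.92 on the log2 scale), Cited2 (0.89), Dnaja1 (0.89), Megf9 (0.88) and Hspa1l (0.88). Snx27 is an endosomal sorting protein, Cited2 a transcriptional co-regulator, and Dnaja1 and Hspa1l are a co-chaperone and a member of the heat shock 70 family, the latter sharing sequence with Hspa1a and Hspa1b. All 5 were highest in replicate 3 of Trem2-/- D0, Hspa1l with 989 CPM against 545 in the next library and Cited2 with 405 against 231. Without the 2 libraries farthest from the median of Tsc22d3, Trem2-/- D0 replicates 2 and 3, r was 0.78, 0.80, 0.71, 0.74 and 0.75 in the same order (n = 14). The points share the groups and the scaling of the libraries.

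Zbtb16, at chr9:48654297-48836222, encodes the transcription factor PLZF, a strong glucocorticoid target in stromal cells that also marks innate-like T cells. It was at 15.2, 10.3, 8.40 and 12.3 CPM in WT D0 mice and 8.57, 3.57, 4.24 and 8.73 CPM in WT D7 mice. In Trem2-/- mice it went from 12.5, 14.97, 15.3 and 25.1 CPM at D0 to 4.43, 3.31, 4.82 and 4.50 CPM at D7. The Trem2-/- groups lay far apart, whereas in WT mice the lowest D0 library was below the 2 highest D7 libraries.

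Zbtb16 fell with injury in both genotypes, by 0.84 ± 0.26 on the log2 scale (SE) in WT (limma adjusted p = 0.0283) and by 1.73 ± 0.26 in Trem2-/- mice (adjusted p = 9.77e-05), where the ratio of group means was 3.98. Under the study's rule for a call, an unadjusted p under 0.05 with a minimum fold change, 18.2% of all genes tested were lower in WT and 27.9% in Trem2-/- mice at D7, and 12.6% and 27.2% had an adjusted p under 0.05. The WT change kept its direction and its unadjusted call, but its adjusted p was 0.0781 in a fit of the WT groups alone, 0.0581 without WT D0 replicate 1, 0.0879 without WT D7 replicate 2 and 0.0700 without WT D7 replicate 3 (0.0166 to 0.0879 over all alternatives). The difference between the genotypes at D7 was -0.39 ± 0.26 (adjusted p = 0.793), and without WT D7 replicate 2 it was -0.59 and past the unadjusted rule. At D0 it was 0.50 ± 0.26, and the difference between the injury effects was -0.90 ± 0.37, both given as descriptions. Beside Zbtb16, T and NK cell genes fell at D7 in both genotypes, Cd3d, Gzma and Nkg7 among 5 tested (log2 differences of -1.002, -1.15 and -1.58 in WT and -1.30, -1.71 and -2.31 in Trem2-/- mice), while Thy1, which fibroblasts also carry, rose by 1.82 and 2.33. Skeletal muscle genes were called lower in 1 of 7 cases in WT and 5 of 7 in Trem2-/- mice, and the Trem2-/- D0 library with 25.1 CPM of Zbtb16 also had the highest muscle sum of all, 965 CPM. The next highest muscle sum, 742 CPM, was in WT D0 replicate 3, which had the lowest Zbtb16 of its group. Their part in the fall was not tested.

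Sgk1, at chr10:21882184-21999903, moved the other way. In Trem2-/- mice it was at 469, 523, 493 and 554 CPM at D0 and at 771, 824, 928 and 773 CPM at D7, with no overlap. In WT mice it was at 676, 368, 419 and 674 CPM at D0 and 587, 767, 664 and 829 CPM at D7. The WT D0 mice thus split into a higher and a lower pair, and the higher pair lay inside the D7 range.

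Sgk1 rose with injury in Trem2-/- mice by 0.69 ± 0.19 on the log2 scale (SE; limma adjusted p = 0.00620), where 26.5% of all genes were called higher, 26.0% had an adjusted p under 0.05 and 26.1% did not overlap. In WT mice the difference was 0.45 ± 0.19, past the unadjusted rule, as were 19.3% of all genes in this direction, but not past adjustment (adjusted p = 0.0784, against 15.9% of genes that passed it). The WT call was lost in a fit of the WT groups alone and without any 1 of 4 libraries, at 0.29 and 0.36 without WT D0 replicates 2 and 3 and at 0.41 and 0.38 without WT D7 replicates 2 and 4. Between genotypes Sgk1 differed by 0.22 ± 0.19 at D7 (adjusted p = 0.830) and by -0.02 ± 0.19 at D0. Summed fibroblast markers in WT D0 replicates 1 and 4, the pair with high Sgk1, were 19954 and 49447 CPM against 6102 and 11332 in replicates 2 and 3, and all D7 libraries had 74136 CPM or more. Within Trem2-/- D0 the order did not hold, since replicate 1 had the highest fibroblast sum, 10991 CPM, with the lowest Sgk1, and replicate 4 the highest Sgk1 with 8244 CPM. The part of the fibroblast share in the level of Sgk1 was not tested.

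Klf9, at chr19:23141226-23168134, had the same split among WT D0 mice, with 194, 95.9, 115 and 155 CPM. It was at 155, 148, 147 and 186 CPM in WT D7, 130.4, 139, 101 and 193 in Trem2-/- D0, and 179.9, 169.5, 189 and 162 in Trem2-/- D7. The D7 libraries of both genotypes lay inside the range of the D0 libraries. The log2 difference with injury was 0.23 ± 0.20 in WT (adjusted p = 0.404) and 0.35 ± 0.20 in Trem2-/- mice (adjusted p = 0.159). Without Trem2-/- D0 replicate 4, the one D0 mouse of its genotype above the D7 mean, the latter was 0.51 and passed the call. Between genotypes Klf9 differed by 0.14 ± 0.20 at D7 (adjusted p = 0.911) and 0.02 ± 0.20 at D0.

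**Figure D3:**
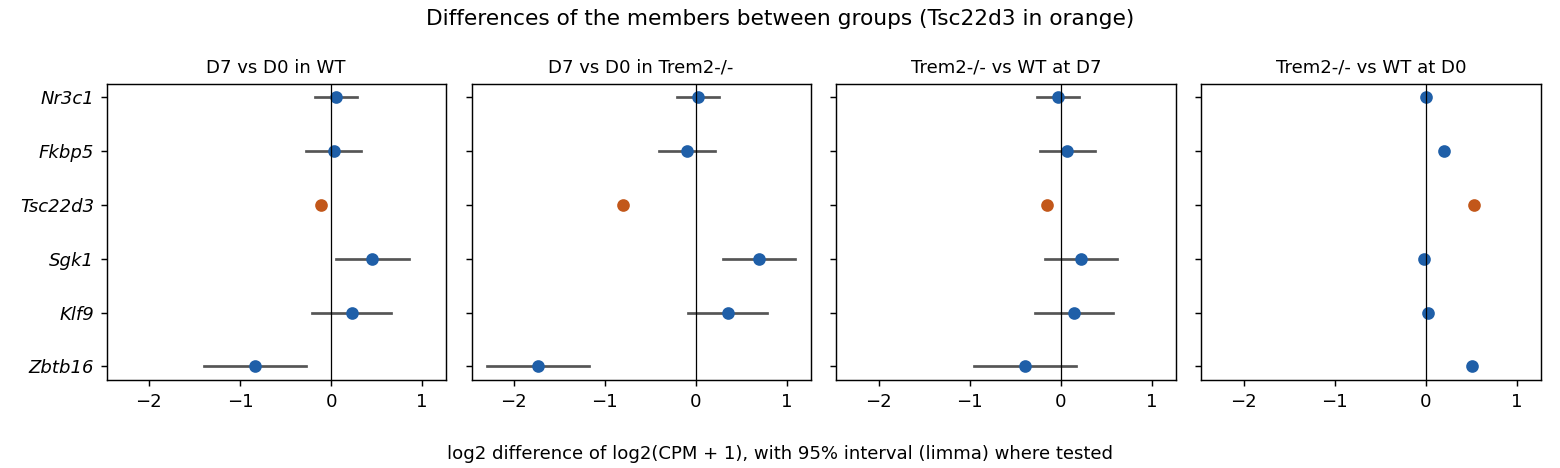
Log2 difference (horizontal axis, on log2(CPM + 1)) of each member in 4 comparisons, with limma's 95% interval for values that were tested; Tsc22d3 (orange) and all values at D0 are points only, since the set was chosen by Tsc22d3 in that comparison. Zbtb16 lies below 0 and Sgk1 above 0 after injury in both genotypes, and Nr3c1 lies at or near 0 in all 4 comparisons.

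Sgk1 and Zbtb16 thus moved in opposite directions with injury, and the other members tested did not pass. Of the 5 that could be tested, 1 was called higher and 1 lower in WT, where 37.4% of all genes were called in either direction, and the same 1 and 1 in Trem2-/- mice, where 54.5% were, so the share of members called was near or below that of all genes. At D7, 0 of the 5 were called between genotypes, against 5.72% of all genes.

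A longer list of glucocorticoid-induced targets put these members in context, 26 of whose 28 genes could be tested. At D7, 8 were called lower and 1 higher in WT, against 18.2% and 19.3% of all genes, and the median log2 difference of the list was -0.20 against -0.04 for all genes. In Trem2-/- mice 10 were called lower and 1 higher, against 27.9% and 26.5% of all genes, with a median of -0.40 against -0.04. Lcn2, an iron-sequestering protein of neutrophils, fell by 1.39 ± 0.45 in WT (adjusted p = 0.0312) and 2.33 ± 0.45 in Trem2-/- mice (adjusted p = 0.000556), and Il1r2, the decoy receptor for interleukin 1, which neutrophils also carry, fell by 1.03 ± 0.37 (adjusted p = 0.0477) and 1.70 ± 0.37 (adjusted p = 0.00142). The neutrophil markers fell beside them in both genotypes, and their part in these values was not tested.

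Other targets fell as well. Fam107a, an actin-bundling stress protein, fell by 0.97 ± 0.24 in WT (limma adjusted p = 0.0105) and 1.73 ± 0.24 in Trem2-/- mice, from 14.5 ± 3.31 to 3.67 ± 0.754 CPM (SD, n = 4). Klf15, a metabolic transcription factor, fell by 0.90 ± 0.20 in WT, from 1.78 ± 0.322 to 0.501 ± 0.239 CPM. Txnip, which restrains thioredoxin and glucose uptake, fell in Trem2-/- mice from 658 ± 64.8 to 229 ± 11.97 CPM, a log2 difference of -1.52 ± 0.16. The exception was Angptl4, an inhibitor of lipoprotein lipase that hypoxia and fatty acids also raise, which rose by 1.35 ± 0.29 in Trem2-/- mice (adjusted p = 0.00137).

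**Figure D4:**
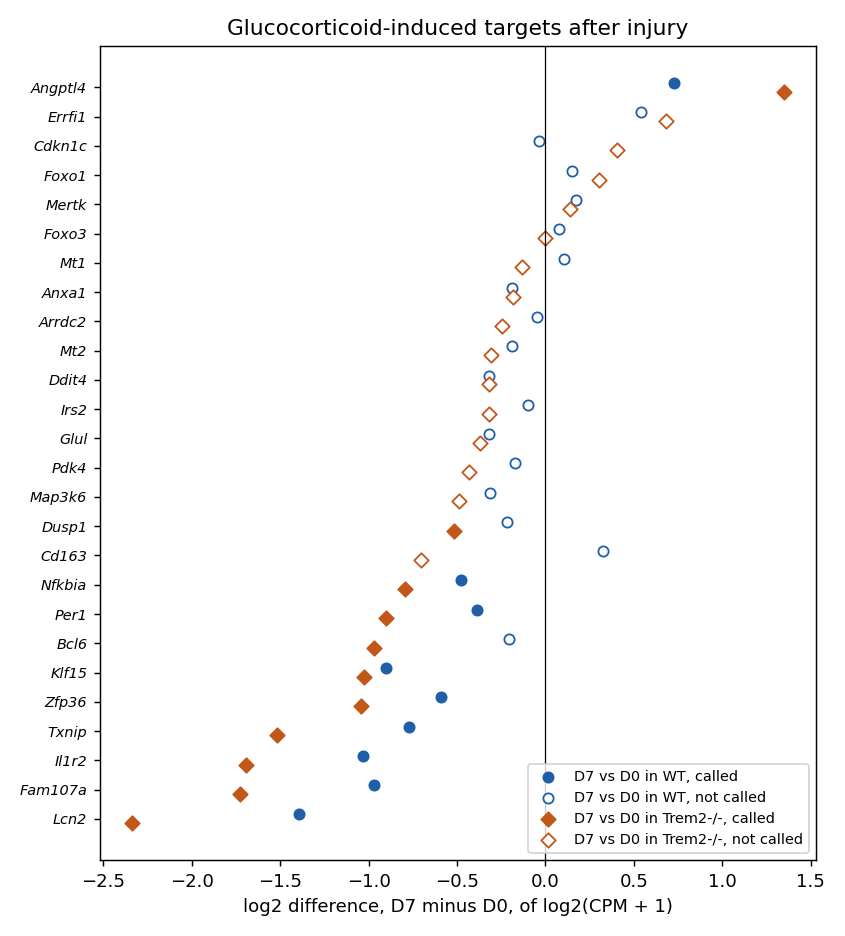
Log2 difference between D7 and D0 (horizontal axis, on log2(CPM + 1)) of 26 glucocorticoid-induced targets (rows, the 6 members not among them) in WT and in Trem2-/- mice; filled symbols passed the study's rule for a call. Called genes lie to the left of 0, 8 in WT and 10 in Trem2-/- mice, except Angptl4.

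Between genotypes few of the targets were called and none passed adjustment, as was the case for all genes: limma gave 0 genes with an adjusted p under 0.05 at D0 and at D7, as did edgeR on the recovered reads, and voom gave 0 and 1, while 2.92% and 7.27% of genes had an unadjusted p under 0.05. The D0 comparison is the one in which Tsc22d3 was noticed, so its counts are given as descriptions and carry no support. At D0, 2 of 26 targets were called higher in Trem2-/- mice, against 0.782% of all genes, and the median of the list was 0.19 against 0.00. They were Nfkbia, which holds NF-kappaB in the cytoplasm (991 ± 127 CPM against 729 ± 83.0, with no overlap), and Fam107a (14.5 ± 3.31 against 9.57 ± 4.11 CPM). At D7, 1 was called higher, Angptl4, and 3 lower, Bcl6, Cd163 and Txnip, against 1.18% and 4.53% of all genes. Bcl6, a transcriptional repressor in lymphocytes and macrophages, was at 39.0 ± 3.53 CPM in Trem2-/- D7 and 60.04 ± 15.7 in WT D7 mice. Cd163, the haemoglobin scavenger receptor of macrophages, was at 4.20 ± 0.922 against 8.33 ± 2.72 CPM, and at D7 3 of 6 macrophage markers were also called lower in Trem2-/- mice. Their part in the level of Cd163 was not tested. Leaving out 1 library moved these counts to between 1 and 4 in either comparison. The interaction of genotype and injury contains the D0 comparison and is likewise given as a description. Under the same rule the injury effect was more negative in Trem2-/- mice for 4 of 26 targets (Bcl6, Txnip, Fam107a and Per1), against 5.02% of all genes. For this interaction limma, edgeR and voom gave 0 genes with an adjusted p under 0.05, and limma 8.16% with an unadjusted p under 0.05. Markers of leukocytes had negative interaction values too, with 4 of 6 leukocyte and 3 of 6 macrophage genes called lower (medians of -0.90 and -0.52). For neutrophil genes 6 of 6 were negative (median -0.85) but 0 were called, and the median over all genes was 0.01. The macrophage list itself rose with injury, less in Trem2-/- mice (median of 1.14) than in WT (1.66). The part of these cells in the targets' values was not tested.

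Among genes that act on the hormone and its receptor, the largest differences with injury were in 2 enzymes of hormone metabolism. Hsd11b1, the enzyme that regenerates active glucocorticoid inside cells, fell with injury by 1.26 ± 0.33 in WT (limma adjusted p = 0.0121), from 59.4 ± 20.6 to 24.5 ± 10.5 CPM. In Trem2-/- mice it fell by 2.03 ± 0.33 (adjusted p = 0.000153), from 69.9 ± 32.2 to 15.1 ± 2.42 CPM (SD, n = 4). Srd5a1, a steroid reductase that inactivates glucocorticoid, rose by 0.76 ± 0.14 and 0.84 ± 0.14 (adjusted p = 0.00215 and 0.000200), at levels of 1.93 to 4.57 CPM. H6pd, which supplies the cofactor of Hsd11b1, rose in WT from 33.96 ± 4.15 to 47.6 ± 5.37 CPM.

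Of the 17 genes of this list tested, 3 were called higher and 3 lower in WT and 5 higher and 9 lower in Trem2-/- mice, against 37.4% and 54.5% of all genes called in either direction. By direction, 17.6% in WT and 52.9% in Trem2-/- mice were called lower, against 18.2% and 27.9% of all genes. Called higher were 17.6% and 29.4%, against 19.3% and 26.5%. The mineralocorticoid receptor Nr3c2, which binds the same hormone, had log2 differences of -0.41 ± 0.31 in WT and -0.21 ± 0.31 in Trem2-/- mice (limma adjusted p = 0.328 and 0.590). The chaperone Hsp90ab1, which keeps the receptor ready, had -0.07 ± 0.17 and -0.29 ± 0.17 (adjusted p = 0.781 and 0.173), and the co-chaperone Dnajb1 fell in Trem2-/- mice from 455 ± 233 to 239.9 ± 17.6 CPM. The summed level of the list was highest, 5171 CPM, in replicate 3 of Trem2-/- D0. Between genotypes 1 gene was called at D0, the co-chaperone Fkbp4 (119 ± 22.1 CPM in Trem2-/- against 91.4 ± 14.3 in WT mice). At D0 0.782% of all genes were called higher, and the set was chosen in that comparison, so this count is a description. At D7 0 genes of the list were called, against 5.72% of all genes.

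Inflammatory genes that glucocorticoid restrains were called about as often as all genes. Of 14 tested, 3 were called lower and 1 higher at D7 in WT, and 5 lower and 2 higher in Trem2-/- mice, against 37.4% and 54.5% of all genes in either direction. By direction, 21.4% and 35.7% were called lower, against 18.2% and 27.9% of all genes. Called higher were 7.14% and 14.3%, against 19.3% and 26.5%. Il1b, the cytokine interleukin 1 beta, fell by 0.88 ± 0.31 in WT (limma adjusted p = 0.0483) and by 1.66 ± 0.31 in Trem2-/- mice (adjusted p = 0.000504), alongside the neutrophil markers. Il6 fell in WT from 347 ± 161 to 142 ± 25.1 CPM, and Tnf fell in Trem2-/- mice from 103 ± 45.1 to 46.0 ± 5.69 CPM. The collagenase Mmp13 was at 76.6 ± 42.9 CPM in Trem2-/- D0 and 309 ± 265 in Trem2-/- D7 mice, whereas WT mice had 445 ± 414 CPM at D0 and 338 ± 434 at D7. Mmp13 was also the only gene of this list called between genotypes at D0 (lower in Trem2-/- mice, as were 1.37% of all genes). There it had the most negative log2 difference of the genes that met the criteria by which Tsc22d3 was noticed. Its injury and interaction values share those Trem2-/- D0 mice, so all its values are given as descriptions. Chondrocyte markers, whose cells make it, had summed levels of 664 to 11913 CPM in WT D0 and 1000 to 3750 in Trem2-/- D0 libraries. At D7 the adhesion molecule Vcam1 was called higher in Trem2-/- mice, at 193 ± 52.9 against 129.7 ± 24.6 CPM (limma adjusted p = 0.629), as were 1.18% of all genes. The interaction of Mmp13 was 2.71 ± 1.09, past the unadjusted rule but not past limma's adjustment (adjusted p = 0.579).

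Relatives of the members were called about as often as all genes. Tsc22d1, which shares the leucine zipper of Tsc22d3 and is raised by TGF-beta, rose with injury from 365 ± 128 to 647 ± 75.1 CPM in WT (limma adjusted p = 0.0153) and from 326 ± 98.1 to 669.8 ± 48.6 CPM in Trem2-/- mice (adjusted p = 0.00180). Tsc22d4 fell in Trem2-/- mice from 142 ± 44.6 to 66.4 ± 4.21 CPM. Fkbp1a, the small relative of Fkbp5, rose there by 0.78 ± 0.21, and Klf4, a relative of Klf9, by 0.66 ± 0.25. In all, 3 of 12 relatives were called higher and 1 lower in WT, and 4 higher and 3 lower in Trem2-/- mice, against 37.4% and 54.5% of all genes in either direction.

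Clock genes were set beside the members because Per1 is both a clock gene and a glucocorticoid target and because hormone levels follow the time of day. Of 12 tested, 4 were called higher and 1 lower at D7 in WT, and 6 higher and 1 lower in Trem2-/- mice. With both directions pooled this was near the 37.4% and 54.5% of all genes called. By direction, 33.3% and 50% were called higher, against 19.3% and 26.5% of all genes, and 8.33% lower in each genotype, against 18.2% and 27.9%. The median log2 difference of the list was 0.24 in WT and 0.58 in Trem2-/- mice, against -0.04 for all genes in each. Npas2, a partner of the clock activator Arntl, rose by 1.48 ± 0.28 and 1.83 ± 0.28, and Ciart, a repressor, fell in WT by 0.80 ± 0.17 (limma adjusted p = 0.00402). At D0 the heme receptor Nr1d1 was called lower in Trem2-/- mice, as were 1.37% of all genes, at 64.4 ± 30.8 against 111 ± 47.2 CPM in WT mice. Stress genes of tissue handling were called lower at D7 in 2 of 9 cases in WT and 6 of 9 in Trem2-/- mice, against 18.2% and 27.9% of all genes, and called higher in Trem2-/- mice in 4 of 9 cases at D0 (Jun, Hspb1, Ier2 and Atf3), against 0.782% of all genes. The part of either group of genes in the levels of the members was not tested.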

How the data were processed

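The 16 bulk RNA-seq libraries of mouse knee joint cells were grouped by the genotype and injury day of the labels. The authors used STAR with mm10 and featureCounts, and deposited a TMM-normalized signal, CPM relative to each library's TMM-scaled size. The annotation and the strand setting of the counting are not given in the sources used here. Deposited values equalled whole numbers of reads times the worth of 1 read (100% within 0.01), so reads could be recovered.

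Values were compared as log2(CPM + 1) with limma 3.58.1 in R 4.3.3 (lmFit, eBayes with trend), with the 4 groups as one factor, over 13173 genes that reached 1 CPM in 4 or more libraries, and Benjamini-Hochberg adjustment over all of them. Adding 1 shrinks the differences of low genes. A call followed the study's rule, an unadjusted p under 0.05 and a fold change over 1.25. Named list genes were the up to 4 called genes per comparison and list with the largest log2 difference, besides Hsd11b1, Nr3c2 and Hsp90ab1. The values of 1 gene of the receptor machinery list are not reported here, and the counts over that list include it. Marker genes and the stress genes of 1 library were named after their values were seen. Members and lists were chosen with earlier results of these data known, so no p is given for Tsc22d3, nor for any member between genotypes at D0 or between injury effects. P-values measure the spread between 4 mice per group, taken as separate animals from the numbered labels.

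Alternatives were pseudocounts of 0.1 and 5, other filters and scalings, eBayes without trend, a fit of only the groups compared, a replicate block, leave-one-out fits, voom and edgeR 4.0.16 on recovered reads, a fold change over 1.5 and adjusted p-values. Gene positions are from GENCODE M21 (GRCm38), which held 13428 of 13733 symbols. No member's exons overlap another gene's, and at most 0.134% of their 75-base stretches occur in another gene.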

Additional observations from a re-analysis of the deposited data

Results flagged for a closer look

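In groups of 4 mice, a library was set apart where its gap to the nearest other library, as a share of the group's range, exceeded Dixon's limit. Of 64 groups tested over the 6 members and the 10 named targets, 3 did so, and chance alone gives about 1 in 20 (3.2 of 64). That rate does not apply to Tsc22d3, which was chosen for being high in the group concerned. It need not hold for the 10 named targets either, since they were named by calls in these same values. Tsc22d3 in Trem2-/- D0 replicate 3 had a gap of 0.952 of the range (301 CPM against 165 to 171 in the other 3). Angptl4 in Trem2-/- D7 replicate 4 had 0.887 (158 CPM against 102 to 109). Cd163 in Trem2-/- D7 replicate 1 had 0.861 (5.58 CPM against 3.59 to 3.86).

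The members were not tested for a difference between injury effects, since it contains the comparison at D0 by which the set was chosen. The same limit holds for the targets, whose values below are descriptions. For 4 targets the effect of injury in Trem2-/- mice minus that in WT mice, on the log2 scale, passed the study's rule for a call, as did 5.02% of all genes in this direction, but none passed limma's adjustment. It was -0.76 ± 0.23 (SE) for Bcl6 (adjusted p = 0.579), -0.75 ± 0.35 for Fam107a (adjusted p = 0.610), -0.51 ± 0.22 for Per1 (adjusted p = 0.595) and -0.75 ± 0.23 for Txnip (adjusted p = 0.579). All 4 had the more negative log2 difference with injury in Trem2-/- mice, as had 6 of 6 leukocyte, 6 of 6 neutrophil and 5 of 6 macrophage markers. Of these markers, 4 leukocyte, 0 neutrophil and 3 macrophage genes were called lower for this difference. The macrophage list itself rose with injury, by a median of 1.66 in WT and 1.14 in Trem2-/- mice. The part of these cells was not tested.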

How the results depend on the processing

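The number of glucocorticoid-induced targets called with injury stayed within 1.5 times its value under every alternative, 7 to 11 in WT (9 as reported) and 10 to 15 in Trem2-/- mice (11 as reported). The smaller counts depended on the rule. Between genotypes at D0, 2 targets became 1 with a fold change over 1.5, 1 with only the groups compared and 0 with adjusted p-values; at D7, 4 became 2 with a fold change over 1.5 and 0 with adjusted p-values; and for the interaction 4 became 0 with adjusted p-values. Leaving out 1 replicate gave 8 to 11 in WT and 11 to 15 in Trem2-/- mice with injury, 1 to 4 at D0, 1 to 4 at D7 and 2 to 5 for the interaction. By library, D0 gave 4 without WT replicate 1 and 1 without WT replicate 4. D7 gave 1 without WT replicate 3 and 2 without WT replicate 4 or Trem2-/- replicates 2 or 4. The interaction gave 2 without WT D0 replicate 4, WT D7 replicate 3, Trem2-/- D0 replicate 4 or Trem2-/- D7 replicate 2.

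Member differences near 0 changed sign: Fkbp5 in WT was -0.0070 and Nr3c1 in Trem2-/- mice -0.0015 under quantile normalization, and with 1 replicate left out Fkbp5 ranged from -0.0573 to 0.130 in WT, and Nr3c1 from -0.0101 to 0.137 in WT, -0.0219 to 0.0690 in Trem2-/- mice and -0.0856 to 0.0213 between genotypes at D7. The cause was not tested. Tsc22d3 at D0 ranged from 0.32 to 0.62 with 1 replicate left out, and from 0.51 to 0.57 otherwise. Same-numbered mice did not deviate together throughout (r from -0.509 to 0.406 over 24 pairs, over 0.1 in 11). Among libraries of the other groups, 7 of the 16 libraries were most like one of their own number. Whether same-numbered libraries were handled together cannot be told from these values. With the replicate number as a block, 9, 12, 2, 3 and 4 targets were called in the 5 comparisons and no member's call changed.

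Over all genes, edgeR on the recovered reads called 5024 with injury in WT and 7279 in Trem2-/- mice, 466 between genotypes at D0, 891 at D7 and 1226 for the interaction, against 4933, 7173, 283, 753 and 1026 with limma. Precision was limited by the spread between 4 mice per group, and the lowest member value rested on 48 reads.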
